A study of Homo sapiens with 4 samples.

Results

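H3K4me3 peaks at the start sites of 8 Hippo pathway genes were compared between control MDA-MB-231 cells and cells with an ARID1A knockout. The genes were YAP1, WWTR1, TEAD1, LATS2, CCN1, CCN2, AMOTL2 and ANKRD1. A peak was taken as belonging to a gene when it shared at least 1 bp with the 2 kb on either side of the gene's hg19 start site. This gave 16 of the 60265 deposited peaks, 8 of the 36677 control peaks and 8 of the 23588 knockout peaks. H3K4me3 is histone H3 with 3 methyl groups on lysine 4, a mark of active promoters, and it was measured by chromatin immunoprecipitation (IP) and sequencing. MDA-MB-231 is an established triple-negative breast cancer line, and ARID1A belongs to the BAF form of the SWI/SNF nucleosome remodellers. The control cells were labelled only as control, the knockout cells only as ARID1A knockout, and the labels used here name no clone, guide, treatment or time for either group. Each genotype had 1 IP library and 1 input library, and the antibody label of both inputs reads IgG. The header of the knockout list calls its library K6, which no label does, and 3 libraries are labelled MDA-MB-232, MDA-MB-233 or MDA-MB-234 in place of the series title's MDA-MB-231. The state of ARID1A itself was not analysed here, since a promoter mark does not show whether the protein is present.

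Hippo signalling is a kinase cascade that restrains growth in response to cell contact and mechanical cues. The kinases LATS1 and LATS2 phosphorylate the coactivators YAP (gene YAP1) and TAZ (gene WWTR1), which keeps them out of the nucleus. When not phosphorylated, YAP and TAZ enter the nucleus and bind TEAD transcription factors, which carry the DNA-binding domain. CCN1 and CCN2 (the matricellular proteins CYR61 and CTGF), ANKRD1 (an ankyrin-repeat protein), AMOTL2 (an angiomotin family scaffold that binds YAP) and LATS2 are widely used as readouts of YAP and TAZ activity, and AMOTL2 and LATS2 also restrain the pathway in feedback. In breast cancer cells, including triple-negative lines, YAP and TAZ are known for promoting growth and invasion.

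The short sequence bound by TEAD factors was looked for in the RefSeq promoters of these genes, because the control peaks cover their start sites. The promoter table (GRCh38.p14, 250 bases before to 50 after a start) matched 6 of the 8 genes with 8 entries, and TEAD1 and CCN1 were not matched. The letters GGAATG, searched on both strands, were found in 5 of the 8 entries, those of 5 of the 6 genes, against 4928 (14.0%) of all 35116 promoters of this length. The 5 promoters are shown 5′ to 3′ along the gene, with the match in capitals (CATTCC is the same motif on the other strand). They are CCN2 (chr6:131951323-131951622, minus strand), ANKRD1 (chr10:90921038-90921337, minus strand), LATS2 (chr13:21061537-21061836, minus strand), YAP1 (chr11:102110197-102110496, plus strand) and AMOTL2 (chr3:134374398-134374697, minus strand), all in GRCh38.p14. A start in this table was not matched to the hg19 start site of the same gene, and AMOTL2 and WWTR1 each have a pair of entries.
CCN2: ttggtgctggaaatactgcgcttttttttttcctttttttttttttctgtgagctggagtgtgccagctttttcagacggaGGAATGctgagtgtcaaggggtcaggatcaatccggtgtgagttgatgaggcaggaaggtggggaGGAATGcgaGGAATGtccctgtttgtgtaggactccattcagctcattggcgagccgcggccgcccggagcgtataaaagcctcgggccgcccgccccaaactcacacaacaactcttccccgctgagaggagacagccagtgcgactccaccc
ANKRD1: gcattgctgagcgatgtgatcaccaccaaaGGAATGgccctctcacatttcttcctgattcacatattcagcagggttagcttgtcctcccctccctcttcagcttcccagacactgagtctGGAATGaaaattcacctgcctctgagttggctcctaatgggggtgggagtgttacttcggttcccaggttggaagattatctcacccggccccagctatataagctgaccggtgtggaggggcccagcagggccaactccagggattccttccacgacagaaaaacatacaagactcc
LATS2: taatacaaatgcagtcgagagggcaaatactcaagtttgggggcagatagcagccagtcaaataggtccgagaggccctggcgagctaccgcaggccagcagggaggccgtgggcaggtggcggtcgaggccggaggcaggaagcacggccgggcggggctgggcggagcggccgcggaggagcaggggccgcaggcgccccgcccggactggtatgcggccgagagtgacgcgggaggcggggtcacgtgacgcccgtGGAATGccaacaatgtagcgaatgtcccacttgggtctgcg
YAP1: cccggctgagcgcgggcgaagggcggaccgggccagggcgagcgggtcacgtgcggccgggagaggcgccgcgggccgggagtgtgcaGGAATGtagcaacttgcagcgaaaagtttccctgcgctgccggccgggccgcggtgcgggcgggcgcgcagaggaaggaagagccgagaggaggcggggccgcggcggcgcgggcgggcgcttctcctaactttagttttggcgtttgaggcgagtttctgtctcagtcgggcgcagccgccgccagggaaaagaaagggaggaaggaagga
AMOTL2: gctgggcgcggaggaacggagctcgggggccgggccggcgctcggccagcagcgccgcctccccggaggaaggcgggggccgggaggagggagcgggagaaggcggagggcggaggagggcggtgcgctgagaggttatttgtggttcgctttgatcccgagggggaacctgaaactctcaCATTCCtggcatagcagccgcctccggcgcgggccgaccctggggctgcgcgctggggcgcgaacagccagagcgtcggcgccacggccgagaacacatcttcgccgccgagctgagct

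CCN2 held 3 of these matches, whose first bases lie 169, 104 and 95 bases before the start, and 3 or more were found in 0.128% of all promoters. ANKRD1 held 2, at 220 and 128 bases before the start, as did 1.37% of all promoters with 2 or more. YAP1 held 1 at 162 bases before, AMOTL2 1 at 69 bases before and LATS2 1 at 10 bases after the start. The 2 WWTR1 entries and the other AMOTL2 entry held none. The exact TATA box letters TATAAA (11.5% of all promoters) were found only in CCN2 among the 8 entries, 32 bases before the start. Variant TATA boxes were not searched for, such as tatataag, which the ANKRD1 entry holds. An AP-1 site (TGACTCA, 4.95% of all promoters) and the SRF CArG box (1.29%) were found in none of them. These motifs were searched on both strands and share no letters with one another in these entries.

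The promoters also differed in CpG content, a feature that goes with H3K4me3 in general. YAP1 had 40 CpG in 300 bases, an observed over expected ratio of 1.15, above the ratio of 98.8% of all promoters. The AMOTL2 entry shown and LATS2 followed with ratios of 0.97 and 0.89. CCN2 had 0.68 and ANKRD1 0.24, around a median of 0.58 over all promoters. The WWTR1 entries had 0.63 and 0.098, and the AMOTL2 entry not shown had 1 CpG and a ratio of 0.046, the lowest of the 8. ANKRD1 had 5 CpG where the median promoter had 14.

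The control list had exactly 1 peak at each of the 8 start sites, and each of these peaks spanned the start site. In the same windows the knockout list had peaks at 4 genes, YAP1 (2 peaks), TEAD1 (1), CCN1 (2) and AMOTL2 (3), and none at WWTR1, LATS2, CCN2 and ANKRD1. Over all 36677 control peaks, 28.4% shared at least 1 bp with a knockout peak, and windows of the same size around the control summits held one in 28.4% as well. These shares depend on strength, and all 8 control peaks were strong and wide, at 5 kb or more, as were 24.4% of all control peaks. When all control peaks were ranked by tags and split into 10 groups of equal size, YAP1, WWTR1, TEAD1, CCN1 and AMOTL2 were in group 10 (most tags), where 84.2% held a knockout peak, and LATS2, CCN2 and ANKRD1 in group 9, where 70.0% did. For windows of 2 kb either side of the summit, the shares were 79.8% in group 10 and 67.4% in group 9. The windows of the genes were centred on start sites instead, 180 to 1979 bp from their control summits. In its window a knockout peak was listed for 4 of the 5 genes of group 10. All 5 control peaks of group 10 shared at least 1 bp with a knockout peak, and none of the 3 in group 9 did. At WWTR1 only 182 bp at the far end of the domain were shared, outside the window. With 1 library per genotype there is no replicate check and no test of the genotype. Intervals cover counting error only, with each tag taken as independent. Where no knockout peak is listed the files give no value, and the weakest listed knockout peak had 12 tags. Bulk libraries cannot tell fewer marked cells from less mark per cell.

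**Figure D1:**
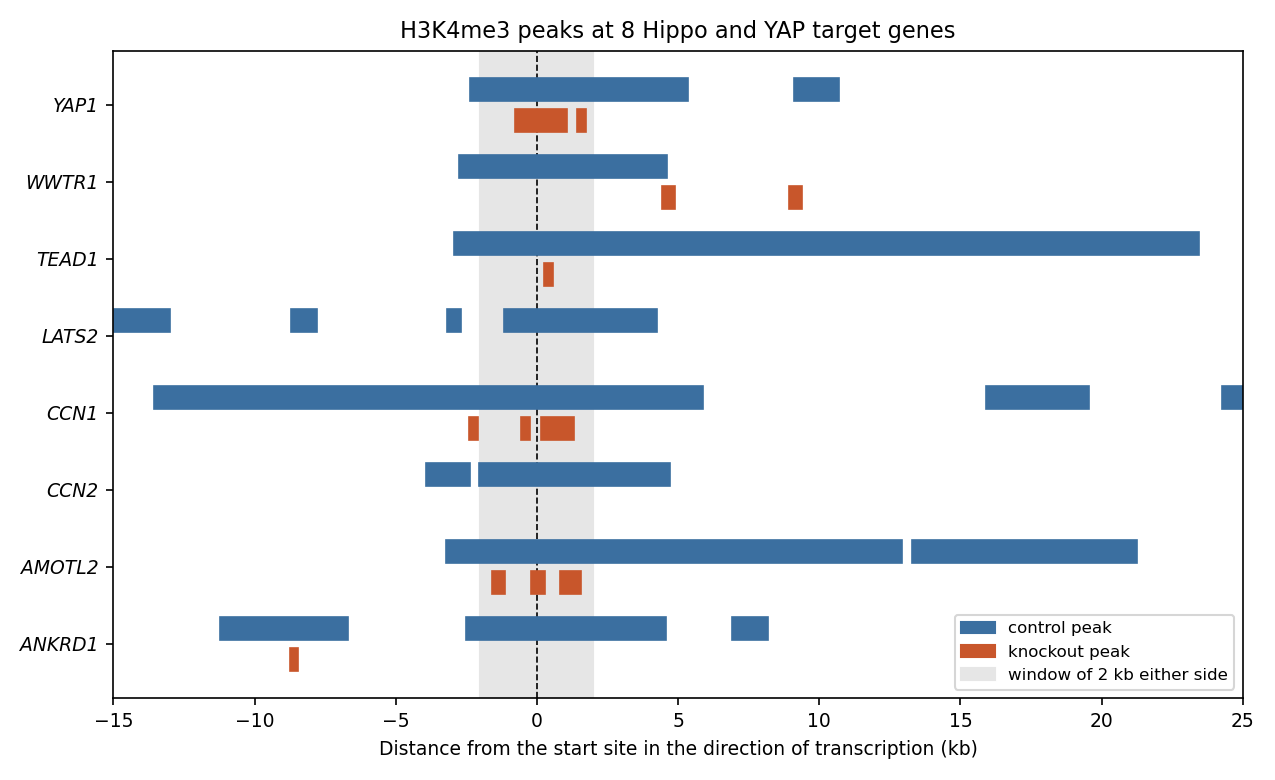
Peaks at the 8 genes, from 15 kb before to 25 kb after the start site in the direction of transcription (horizontal axis, kb). Each row is a gene, blue bars are control peaks, orange bars knockout peaks, and the grey band is the window of 2 kb either side. A control peak spans every start site, while knockout peaks lie in the grey band at YAP1, TEAD1, CCN1 and AMOTL2 only.

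**Figure D2:**
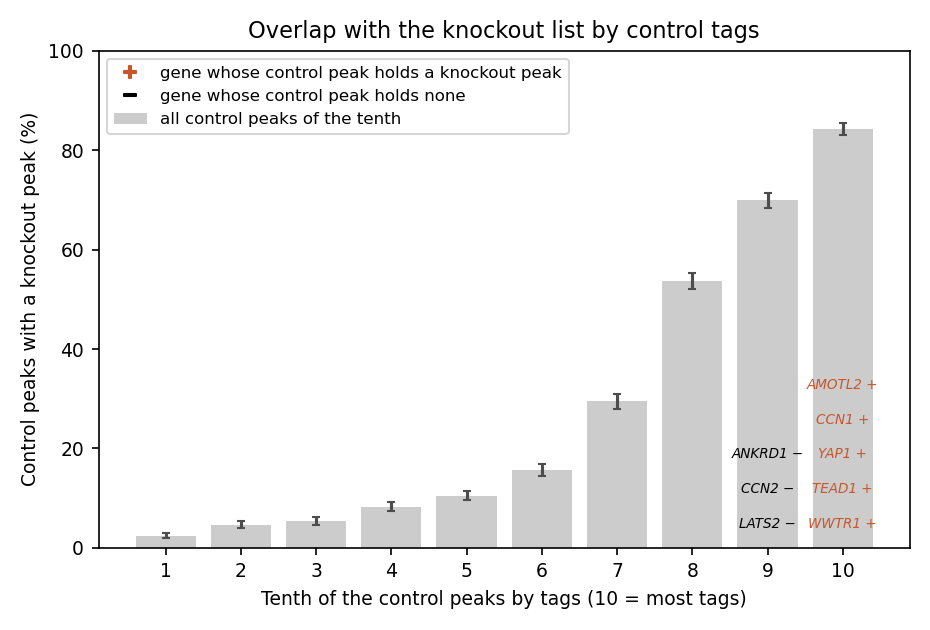
Share of control peaks that hold a knockout peak (vertical axis, %) in 10 equal groups by control tags (horizontal axis), with exact 95% binomial intervals as error bars. The names in a bar are the genes whose control peak falls in that group. They are marked + where it shares at least 1 bp with a knockout peak and − where it does not. The 5 in group 10 are marked + and the 3 in group 9 −, with only 182 bp shared at WWTR1.

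The libraries differ in ways that touch each comparison between the lists. For the control, the IP held 27748061 tags and the input 14878873. For the knockout, they held 13391724 and 17890122. Peaks held 62.1% of the control IP tags and 99.4% of the knockout IP tags. The median peak was 2968 bp wide in the control and 300 bp in the knockout, and 55.0% of knockout peaks were exactly 300 bp, the fragment length used by the peak caller. At the 8 genes, 3 of the 8 knockout peaks had that width. No molecular identifiers are mentioned in the labels, so a fragment copied by PCR may be counted many times, and its part in the tag counts was not tested. Where tags are such copies, the intervals given for tags and ratios are too narrow.

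In the control cells the coactivator genes had domains of similar size. YAP1 was covered from 101978838 to 101986552 on chromosome 11 (hg19 throughout for peaks), 7715 bp with 1624 IP tags (exact Poisson 95% interval 1546 to 1705). WWTR1, which encodes TAZ, was covered from 149371192 to 149378570 on chromosome 3, 7379 bp with 1670 tags (1591 to 1752). Per kb these came to 210 tags for YAP1 (200.4 to 221) and 226 for WWTR1 (216 to 237), so their intervals overlapped. The peak caller's own fold enrichment over the input differed more, at 133 for YAP1 and 59.0 for WWTR1, the lowest of the 8 genes. Both domains reached farther into the gene than away from it, 5360 bp downstream and 2354 bp upstream at YAP1 and 4620 and 2758 bp at WWTR1.

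The knockout list differed between the coactivator genes. At YAP1 it held a peak from 101980423 to 101982251, 1829 bp wide with 2698 tags (2597 to 2802), which spanned the start site. By width it ranked 60 among the 23588 knockout peaks, of which 3.78% were 1 kb or wider, and by tags it ranked 194. A second YAP1 peak of 300 bp lay 1436 bp downstream with 89 tags (71.5 to 110). At WWTR1 the nearest knockout peak, from 149370921 to 149371373 with 616 tags, was 4439 bp downstream of the start site and shared 182 bp with the far end of the control domain. Its summit lay 3600 bp from the control summit. Among all control peaks with a knockout peak, the median distance from the control summit to the strongest knockout summit was 454 bp, and at YAP1 it was 383 bp.

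TEAD1, one of the TEAD factors that bring YAP and TAZ to DNA, had the widest control domain of the 8 genes. It ran from 12693030 to 12719429 on chromosome 11, 26400 bp with 4154 tags (4029 to 4282), and ranked 23 by width among the 36677 control peaks. It was one-sided, with 23460 bp downstream of the start site and 2939 bp upstream. Its summit lay 285 bp downstream of the start site, so the tail ran into the gene body. Its density of 157 tags per kb (152.6 to 162) was below that of 6 of the other 7 genes. The knockout list held a single peak there, from 12696228 to 12696527, 300 bp with 1187 tags (1120 to 1256), which began 259 bp downstream of the start site. This peak covered 1.14% of the control domain, against a median of 10.4% over all control peaks with a knockout peak. That median was not matched for width, and the median of all control peaks was 2968 bp. The summit of the TEAD1 knockout peak was 123 bp from the control summit. At 3957 tags per kb it ranked 481 by density in the knockout list, but its width equals the fragment length.

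CCN1 and CCN2, paired as secreted matricellular targets, differed in both lists. The CCN1 domain ran from 86032884 to 86052310 on chromosome 1, 19427 bp with 5265 tags (5124 to 5409), and ranked 29 by tags and 91 by width. It was the one domain of the 8 that reached farther upstream (13560 bp) than downstream (5866 bp). Its density of 271 tags per kb (264 to 278) was the highest of the 8 genes. The CCN2 domain, from 132267797 to 132274578 on chromosome 6, was 6782 bp wide with 1240 tags (1172 to 1311), or 183 tags per kb (173 to 193), with 4721 bp downstream and 2060 bp upstream. The control domain over the CCN1 start site was therefore both wider and denser than that over the CCN2 start site. Whether its upstream part belongs to CCN1 or to another gene was not analysed here.

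The CCN1 start site was flanked by knockout peaks and lay in neither of them. The stronger ran from 86046582 to 86047755, 1174 bp with 1047 tags (985 to 1112), and began 138 bp downstream. The weaker, from 86045890 to 86046189 with 145 tags (122 to 171), ended 255 bp upstream. Another knockout peak in the same control domain, from 86044054 to 86044353 with 494 tags, ended 2091 bp upstream, just outside the window. DDAH1 is the next protein-coding gene on that side in the RefSeq gene order, and its hg19 start site was not analysed here. At CCN2 the nearest knockout peak to the start site was 85705 bp away, with 133 tags. No knockout peak within 50 kb of the control summit was found for 28.8% of all control peaks and for 12.0% of those in group 9 by tags, which includes CCN2.

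The feedback genes AMOTL2 and LATS2 also stood apart. The AMOTL2 domain ran from 134080318 to 134096479 on chromosome 3, 16162 bp with 2580 tags (2481 to 2682), of which 12941 bp lay downstream of the start site and 3220 bp upstream. It ranked 177 by width. The knockout list held 3 peaks there, as it did in the CCN1 domain. Of all control peaks 1.82% held 3 or more, and of those in group 10 by tags 14.2%. The AMOTL2 peaks were a downstream peak from 134091708 to 134092425 with 1389 tags (1317 to 1464), an upstream peak from 134094382 to 134094848 with 1228 tags (1160 to 1299), and between them a peak over the start site, from 134092962 to 134093454, with 14 tags (7.65 to 23.5). The middle peak was the weakest knockout peak at any of the 8 genes, with a false discovery rate of 6.94%, and the other 7 were at 0.22% or less. AMOTL2 thus had its knockout tags on both sides of the start site and few at it.

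LATS2, the kinase that inactivates YAP and TAZ, had the narrowest control domain of the 8 genes. It ran from 21631459 to 21636880 on chromosome 13, 5422 bp with 1072 tags (1009 to 1138), or 198 tags per kb (186 to 209.9). It reached 4263 bp downstream and 1158 bp upstream of the start site. The nearest knockout peak was 44950 bp upstream, with 197 tags in 300 bp. Its control fold enrichment of 146 was higher than that of YAP1 or AMOTL2 (139), both of which had knockout peaks. It was lower than that of TEAD1 (204) and CCN1 (189), which had them too. By control tags LATS2 was below YAP1 (1624) and AMOTL2 (2580).

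ANKRD1, a target best known as a cardiac ankyrin-repeat protein, had the weakest control domain, from 92676449 to 92683558 on chromosome 10. It was 7110 bp wide with 868 tags (811 to 928), or 122 tags per kb (114 to 130.5). The domain reached 4583 bp downstream and 2526 bp upstream, and its summit was the closest to its start site of the 8, 180 bp downstream. The median control peak had 168 tags and 56.5 tags per kb, so ANKRD1 was still well above it. The nearest knockout peak was 8461 bp upstream with 102 tags, in a separate control domain of 250 tags.

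**Figure D3:**
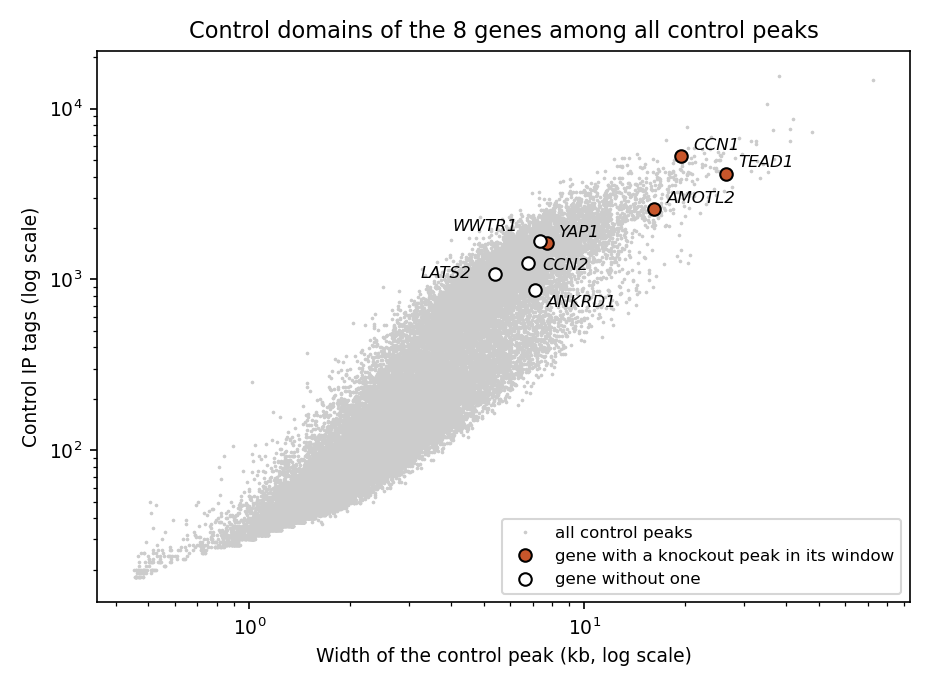
Width (horizontal axis, kb) and IP tags (vertical axis) of all 36677 control peaks, both on log scales. Large points are the 8 genes, filled where the window held a knockout peak; the 4 filled points span 1624 to 5265 tags and the 4 open points 868 to 1670.

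In order of control tags per kb the genes ran CCN1, WWTR1, YAP1, LATS2, CCN2, AMOTL2, TEAD1 and ANKRD1. The counting intervals of WWTR1 and YAP1, YAP1 and LATS2, LATS2 and CCN2, and AMOTL2 and TEAD1 overlapped, and those of the other neighbours did not. The order by width was different, with TEAD1, CCN1 and AMOTL2 first, all of 15 kb or more, a width reached by 0.643% of control peaks. All 3 held a knockout peak, as did 92.8% of the control peaks of that width. The 4 genes with a knockout peak in the window had control domains of 7715 to 26400 bp and 1624 to 5265 tags, and the 4 without had 5422 to 7379 bp and 868 to 1670 tags. The ranges of width did not overlap, and those of tags did, since WWTR1 had more tags than YAP1. Density overlapped widely, at 157 to 271 tags per kb with and 122 to 226 without a knockout peak. All 8 control summits lay downstream of the start site, by 180 to 1979 bp, and so did the summit of the strongest knockout peak at each of the 4 genes, by 408 to 1115 bp. How often this holds at other start sites was not computed, so it is not shown to be particular to these genes.

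**Figure D4:**
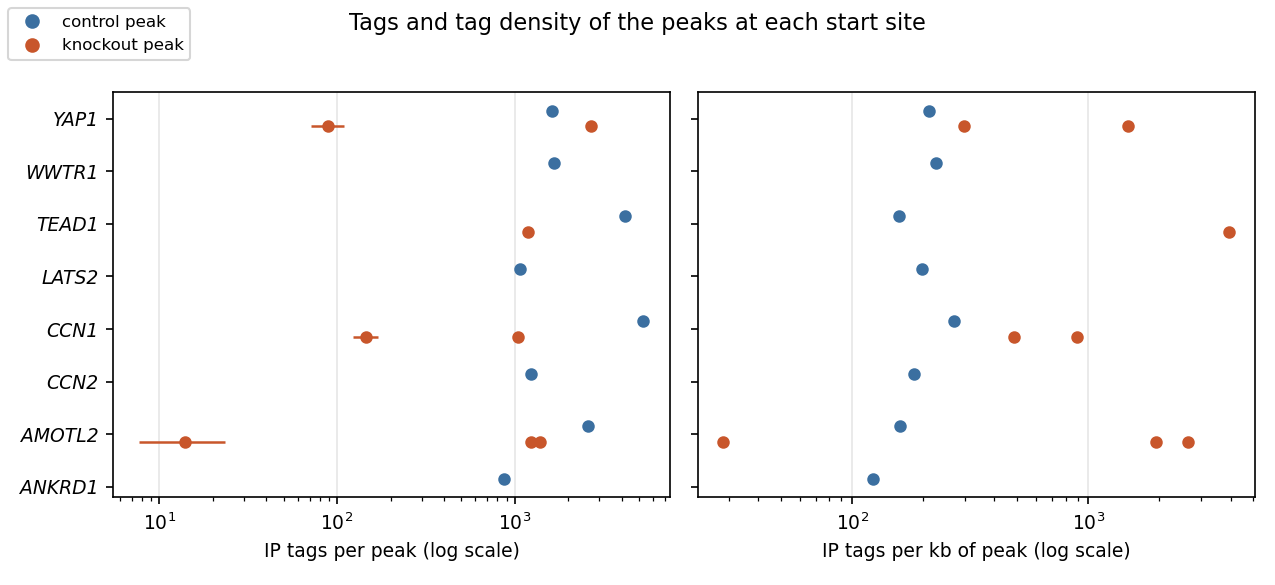
IP tags per peak (left, with exact Poisson 95% intervals) and IP tags per kb of peak (right) for each peak in the window of each gene, both on log scales, with control peaks in blue and knockout peaks in orange. Control densities lie between 122 and 271 tags per kb. Of the 8 knockout peaks, 7 are denser than the control peak of their gene, the exception being the middle AMOTL2 peak. The lists differ in the same way as a whole, with median densities of 1094 tags per kb (knockout) and 56.5 (control). For the median of the 7552 pairs, the log2 ratio of knockout over control tags per kb was 3.07.

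Where both lists had peaks, the summed tags gave no common direction. At YAP1, 2787 knockout tags stood against 1624 control tags. On the log2 scale, with a pseudocount of 1 and centred on the median of 7552 pairs in which 1 control peak met 1 knockout peak, this was 1.23 (exact binomial 95% interval 1.15 to 1.32). AMOTL2, with 2631 knockout and 2580 control tags, had a centred log2 ratio of 0.48 (0.41 to 0.56). TEAD1, with 1187 and 4154 tags, had -1.35 (-1.45 to -1.26), and CCN1, with 1192 and 5265 tags, had -1.69 (-1.78 to -1.60). Past a 2-fold difference from the median pair were 1 gene above (YAP1) and 2 below (TEAD1 and CCN1). With tags divided by the library totals, 2 were above (YAP1 and AMOTL2) and 1 below (CCN1). Among the 10427 control peaks with a knockout peak, whose knockout tags were summed over the whole control peak, 27.9% were at least 2-fold above and 24.5% at least 2-fold below, and the median was 0.12. Such differences were therefore common over the whole list, and those of the genes lay within the SD of the pairs, 1.96. Per kb of peak width and centred in the same way, YAP1 came to -0.43 and TEAD1 to 1.59, so the direction at these genes turned with the scale, while CCN1 (-1.49) and AMOTL2 (0.23) kept theirs. On that scale TEAD1 was past 2-fold above and CCN1 below.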

How the data were processed

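Per the submitters' processing notes, Bowtie2 2.2.4, MACS 1.4.3 and the build hg19 were used. Per the file headers, MACS called the peaks of each IP library against its own input at a p threshold of 0.0001 and a fragment length of 300 bp, and scaled the larger library towards the smaller. Whether the authors removed duplicate tags is not stated in those headers or notes. The deposited tag counts are whole IP tags per peak, not normalized. The authors also deposited a score per peak (a log10-scaled MACS p), a fold enrichment (a ratio of IP tags to local background) and a false discovery rate in percent. These 3 were not compared between the lists, though the stricter thresholds put the same cut-off on each list. Libraries were grouped by title, and the lists were matched to them by name.

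The start sites and the 8 genes were given for this work, and members and lists were chosen with earlier results of these data known. Values are given for these 8 genes. Strands came from the RefSeq promoter table, and for TEAD1 and CCN1 from general knowledge. Wider pathway gene lists were not analysed here, for want of an hg19 annotation. Peaks overlapped when they shared at least 1 bp. Tag counts have exact Poisson 95% intervals, ratios exact binomial ones and shares exact Clopper-Pearson ones. Overlap and ratio steps were tested on simulated data. The software was scipy 1.17.1, pandas 2.3.3, numpy 2.4.6 and matplotlib 3.10.9 under Python 3.11.15. The alternatives were other windows, stricter peak thresholds, other scalings, pseudocounts and overlap criteria.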

Additional observations from a re-analysis of the deposited data

How the results depend on the processing

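No paired analysis was possible because each genotype has 1 IP library. All 8 genes kept a control peak under the 6 other windows and thresholds. The number with a knockout peak, 4 as reported, and the number with both were 4 with 1 kb either side, 5 with 5 kb (WWTR1 added), 4 under each of the 3 stricter thresholds, and 2 (YAP1 and AMOTL2) when the peak had to span the start site. Divided by the library totals, without centring, the log2 tag ratios were 1.83 for YAP1, -0.76 for TEAD1, -1.09 for CCN1 and 1.08 for AMOTL2, so TEAD1 was no longer past 2-fold and AMOTL2 was. Per kb of peak width they were -0.43 and 1.59, reversed, for YAP1 and TEAD1, -1.49 for CCN1 and 0.23 for AMOTL2. With the third knockout peak of its domain, CCN1 came to -1.19. Other pseudocounts left all 4 ratios within their intervals. Of all control peaks, 28.4% held a knockout peak, and this share was 0.0600% with 50% of the control peak covered, 29.98% within 1 kb, 46.1% at a false discovery rate of 1% or less and 17.2% without the 300 bp knockout peaks. The width scaling divides by the different peak widths and also centres on the median pair per kb, a log2 ratio of 3.07. The parts of these steps in the shift were not separated, and for the others the cause was not tested. Depth limits what a missing knockout peak can show, and the lists give no tags outside peaks.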

Other observations

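Beyond the windows, the surroundings of the 8 genes were unevenly marked. Within 50 kb of the start sites, the control list had 24 further peaks, at least 1 near each gene. They had 19 to 917 tags (median 122.5), and 4 met a knockout peak, against 28.4% of all control peaks. That share rises with tags, from 2.45% in group 1 (fewest tags) to 84.2% in group 10, and the median control peak had 168 tags. The knockout list had 10 further peaks near 6 of the genes, with 46 to 1706 tags (median 405.5), of which 5 met a control peak, against 60.3% of all knockout peaks. YAP1 and CCN2 had none of these. The most tags were found 8929 bp downstream of the WWTR1 start site, in a knockout peak of 456 bp with 1706 tags that met no control peak, against 616 tags in the knockout peak at the end of the WWTR1 domain. LATS2 had 6 further control peaks, the most of the 8 genes when no stricter threshold is set. Those of 19, 31 and 52 tags had false discovery rates of 31.47%, 25.99% and 20.67%. Another, of 339 tags, began 16668 bp upstream and met no knockout peak. CCN1 had 5, all at a false discovery rate of 2.71% or less, of which 2 held a knockout peak. AMOTL2 was followed downstream by a control domain of 7955 bp with 314 tags, and ANKRD1 had a control peak of 917 tags 46582 bp downstream, more than the 868 tags of its own domain. Which genes or regulatory elements these peaks mark was not analysed here.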
